A study of Mus musculus with 6 samples.

Results

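Interferon-stimulated genes are genes whose transcription rises when cells detect interferons. A set of 37 of them was examined in mouse colon epithelium on Affymetrix Mouse Genome 430 2.0 arrays, on which each probe set is a small group of short probes for a transcript. The members were taken as all probe sets whose platform annotation gives exactly 1 gene symbol from the set. This found 55 probe sets for 34 genes, of 34958 such probe sets for 18194 genes in all. Isg15, Ifi44 and Oas1g had no such probe set and were not analysed here. The knockout group was vil-Cre-Bcl9-/-/Bcl9l-/-, which carries Cre driven by the villin promoter of gut epithelium and lacks Bcl9 and Bcl9l, co-activators that bind beta-catenin in the Wnt pathway. The other group was wildtype, for which the labels name no Cre, so an effect of Cre itself and loss of the co-activators cannot be told apart. Both groups were 12 weeks old, of a 129SvEv/C57BL/6/DBA/2 mixed background, and their colon epithelium was described as healthy and taken off with EDTA without sorting. Each group had 3 arrays, and each array was a separate pool: knockout 1, 2 and 3 held 3, 2 and 2 mice, and wild type 4, 5 and 6 held 3 mice each.

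Interferons signal through receptors and JAK kinases to STAT proteins. Type I interferons (alpha and beta) and type III interferons (lambda) lead to a complex that includes STAT2 and IRF9 and binds the interferon-stimulated response element (ISRE). Interferon gamma acts through gamma-activated sites (GAS). In the gut, type III interferon acts mainly on epithelial cells, and a low level of these genes is kept up by the microbiota. The proteins sense foreign nucleic acid, block translation or degrade viral RNA, modify other proteins or amplify the response.

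The promoter sequences of the members show an element that many of them share. RefSeq promoter windows (GRCm38.p6), 300 bases long with 250 before and 50 after each start site, were found for 27 of the 37 members. The ISRE core, GAAA repeated after any 2 bases and searched on both strands, lay in a window of 16 of these 27 genes (59.3%), against 1079 of all 27025 genes with a window (3.99%). The GAS motif TTCNNNGAA, which reads the same on both strands, lay in 5 of 27 (18.5%) against 9.55% of all genes. In Bst2 the GAS match overlaps an ISRE match, and in Bst2, Gbp3, Irgm1, Isg15, Oas1a and Oas1g neighbouring ISRE matches overlap each other. A match describes these letters only. The stretches of 150 bases before the start site of Ifit1, with the core present as separate copies, of Igtp, with a single copy close to the start, and of Irf7, with none, follow, with the core in capitals.
Ifit1, chr19:34640739-34640888, plus strand: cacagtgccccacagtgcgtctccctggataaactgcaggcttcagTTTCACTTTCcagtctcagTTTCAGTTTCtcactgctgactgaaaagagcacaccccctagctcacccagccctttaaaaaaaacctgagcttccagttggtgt
Igtp, chr11:58199406-58199555, plus strand: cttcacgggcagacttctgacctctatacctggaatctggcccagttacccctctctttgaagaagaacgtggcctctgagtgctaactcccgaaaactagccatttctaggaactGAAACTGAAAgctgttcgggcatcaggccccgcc
Irf7, chr7:141266425-141266574, minus strand: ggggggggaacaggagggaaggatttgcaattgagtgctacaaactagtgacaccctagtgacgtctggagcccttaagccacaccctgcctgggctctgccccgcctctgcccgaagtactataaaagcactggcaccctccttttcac

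Shorter stretches of 30 bases around the core show its form in 5 other measured members, 1 or more from each of the OAS, IFIT, effector and GTPase groups described below. In Ifit3, Gbp2 and Rsad2 the core runs on the strand opposite to the gene and so reads as TTTC repeated after 2 bases.
Ifit3, chr19:34583363-34583392, plus strand: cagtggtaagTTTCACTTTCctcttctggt
Oas1a, chr5:120907520-120907549, minus strand: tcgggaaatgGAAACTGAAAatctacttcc
Oas3, chr5:120777715-120777744, minus strand: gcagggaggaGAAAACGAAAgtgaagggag
Rsad2, chr12:26456553-26456582, minus strand: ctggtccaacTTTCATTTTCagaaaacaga
Gbp2, chr3:142620594-142620623, plus strand: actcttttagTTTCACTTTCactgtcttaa
The Oas1a stretch is also present, letter for letter, before the start of its neighbour Oas1g. Several members lie side by side in the genome with no other protein-coding gene between them: Ifit2 with Ifit3, Oas2 with Oas3, Oas1g with Oas1a, Oasl1 with Oasl2, Rsad2 with Cmpk2, and Parp14, Dtx3l and Parp9 in a row.

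No member passed the test between genotypes. limma with Benjamini-Hochberg adjustment over all 18194 genes called 0 of the 34 (smallest adjusted p = 0.953) and 0% of all genes in either direction. Yet 31 of the 34 read lower in the knockouts, where 47.8% of all genes did. The median difference in log2 value (knockout minus wild type) was -0.49 against 0.0096 over all genes. At an unadjusted p under 0.05 there were 5 members lower, Irf7, Oasl2, Ifit1, Xaf1 and Ifi27l2a, where 2.02% of all genes were lower, and 0 members higher, where 2.69% of all genes were. Only in Irf7 and Ifi27l2a did all knockout values lie below all wild-type values, 2 of 34 where 4.83% of all genes did so, and in 0 members did all lie above, where 5.5% of all genes did. The count of 2 is near that background. Both counts moved with single arrays. Without wild type 4, 18 members were lower at an unadjusted p under 0.05, where 2.5% of all genes were. The count was 6 without knockout 2 (1.53% of all genes) and 3 without knockout 3 (1.54%). It was 2 of 34 each without knockout 1 (1.65% of all genes), wild type 5 (2.02%) and wild type 6 (3.6%). A count of 2 is too small to read as a result about the members. All knockout values lay below wild type in 23 members without wild type 4, where 9.09% of all genes did so among the 5 arrays kept. They did so in 7 without knockout 2 (9.08% of all genes), in 4 without knockout 3 (8.7%), and in 2 each without knockout 1 (9.25%), wild type 5 (7.94%) and wild type 6 (13.3%). Without knockout 1, 2 members also lay wholly above wild type (9.62% of all genes). Over the 55 probe sets the picture was alike: 52 differed below 0 (47.5% of all probe sets did), 9 were lower at an unadjusted limma p under 0.05 (1.89% of all), 0 were higher (2.71% of all), 3 had all knockout values below wild type (4.65% of all), and 0 passed after adjustment. Among the 14 members with more than 1 probe set, every probe set was below 0 in 13.

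**Figure D1:**
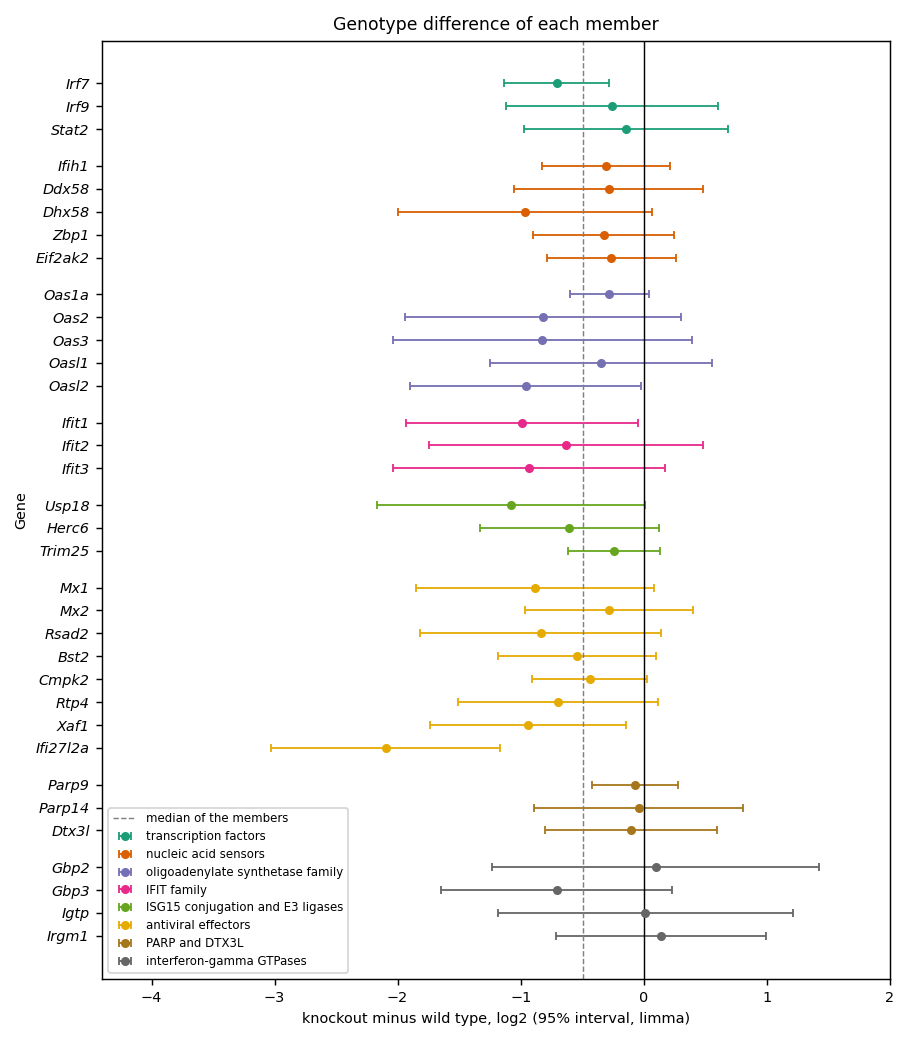
Each point is a member's knockout minus wild-type difference on the log2 scale, with limma's 95% interval, 3 arrays per group, coloured by role. Points lie left of 0 for 31 of 34 genes, the dashed line marks the median of -0.49, and the intervals of 29 of the 34 genes include 0.

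The larger range within a genotype exceeded the genotype difference in 32 of 34 members, as it did in 95.4% of all genes. The arrays nonetheless had an order that most members shared. Their level in an array, the median over members of the log2 value relative to each gene's own 6-array mean, was -0.69, 0.02 and -0.04 in knockout 1, 2 and 3 and -0.25, 0.42 and 0.61 in wild type 4, 5 and 6. Knockout 1 was thus the lowest array and wild type 5 and 6 the highest, with wild type 4 below knockout 2 and 3. Knockout 1 held the lowest value of 30 of the 34 members, where it held that of 15.8% of all genes. Wild type 6 held the highest value of 21 members (12.8% of all genes) and wild type 5 that of 11 (21.1% of all genes). For 23 members those were also the highest 2 arrays, against 6.03% of all genes.

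**Figure D2:**
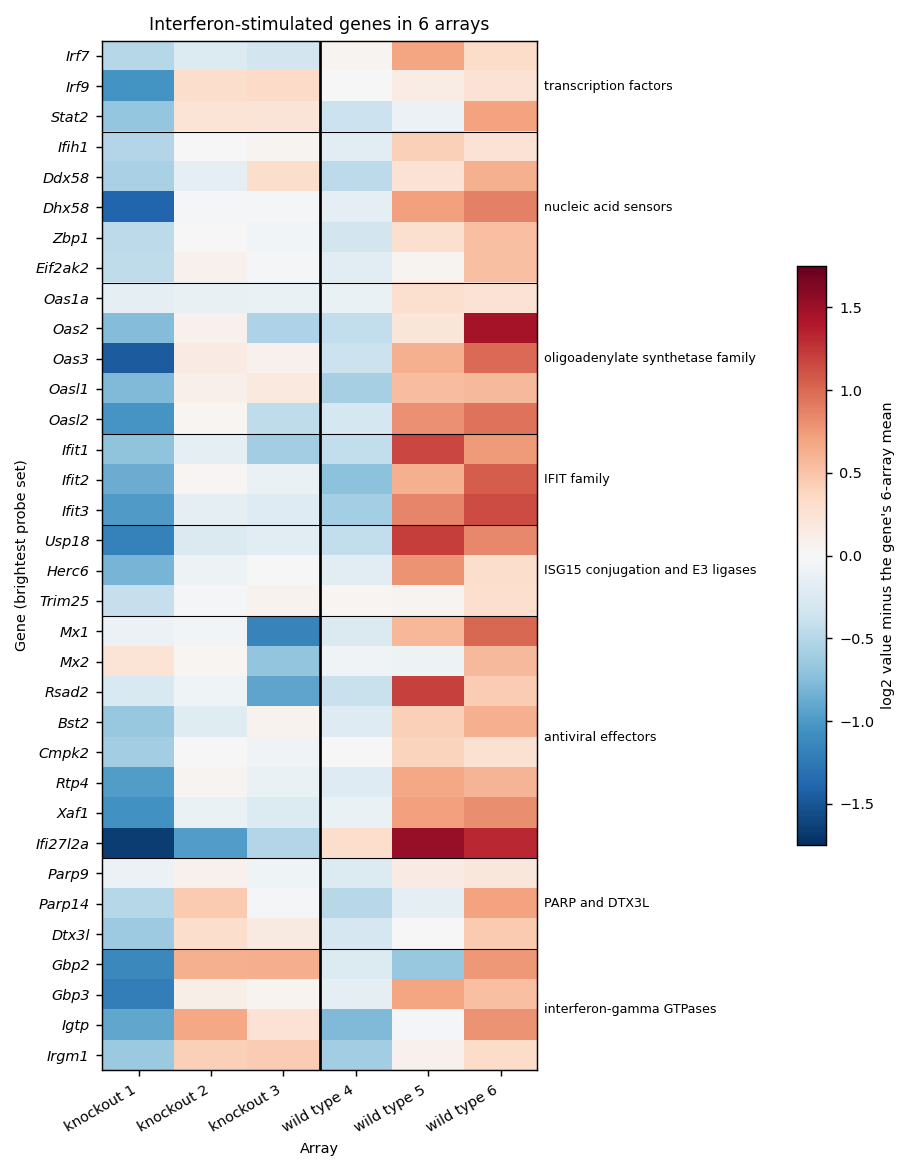
Colour gives the log2 value of each member in each array minus that gene's 6-array mean, with rows ordered by role and a line between genotypes. Knockout 1 is blue in most rows and wild type 5 and 6 are red in most, while wild type 4 is paler and mostly blue.

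Single pairs of arrays show how far the direction rests on which array is read. Against wild type 5 or 6, each knockout array was lower for 25 to 34 of the 34 members (38.2% to 57.3% of all genes), with medians of -1.29 to -0.44. Against wild type 4, knockout 1 was lower for 30 members (49.8% of all genes), with a median of -0.34. Knockout 2, however, was lower for only 4 (56.9% of all genes), with a median of 0.28. Knockout 3 was lower for only 10 (52.7% of all genes), with a median of 0.20. Arrays of the same genotype also differed widely, though by less than the widest pair across genotypes (-1.29). Knockout 1 lay below knockout 2 in 33 of 34 members (43.8% of all genes), with a median of -0.83. Wild type 4 lay below wild type 6 in 34 of 34 (36.7% of all genes), with a median of -0.93. Knockout 2 and 3 were close, with a median difference of 0.06. The median range within the knockouts was 0.93 for members and 0.31 for all genes, and within wild type 1.01 against 0.34. The standard error (SE) of the difference was accordingly wider, with a median of 0.36 over members and 0.15 over all genes.

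The transcription factors of the response are IRF7, which drives the later wave of interferon transcription, and IRF9 and STAT2, which form the ISRE-binding complex. Irf7 read 8.41, 8.66 and 8.58 in knockout 1, 2 and 3 and 8.95, 9.59 and 9.22 in wild type 4, 5 and 6 (log2). Each of its knockout values lay below each wild-type value, and it was 1.63-fold lower in the knockouts (-0.71, SE 0.18, 95% interval -1.13 to -0.28, limma adjusted p = 0.953). Irf9 and Stat2 differed by -0.26 (SE 0.36) and -0.15 (SE 0.35), and both overlapped between genotypes. Irf9 read 7.42 in knockout 1 and 8.47 to 8.79 in the other 5 arrays, so its difference came to 0.20 without knockout 1.

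The sensors recognise viral nucleic acid: Ddx58 encodes RIG-I, Ifih1 encodes MDA5, Dhx58 encodes their regulator LGP2, Zbp1 binds Z-form nucleic acid, and Eif2ak2 encodes the kinase PKR, which halts translation on double-stranded RNA. All 5 differed below 0, with a median of -0.30 and none at an unadjusted p under 0.05 by its brightest probe set. Eif2ak2 read 9.19, 9.70 and 9.60 in the knockouts and 9.45, 9.67 and 10.16 in wild type. Its groups overlapped, with wild type 4 below knockout 2 and 3 (difference -0.26, SE 0.22, limma adjusted p = 0.971). Dhx58 differed by -0.97 (SE 0.44), with 5.90 in knockout 1 against 7.13 to 8.18 in the other arrays. A further Dhx58 probe set of like brightness gave -0.65, and a dim one (mean 2.90) gave -0.42.

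Oligoadenylate synthetases make the second messenger that switches on RNase L, which cuts RNA, and Oasl1 and Oasl2 are related proteins. The 5 measured members of this family differed by -0.96 to -0.28, with a median of -0.82. Oasl2 read 8.26, 9.33 and 8.86 in the knockouts and 8.99, 10.09 and 10.25 in wild type. Wild type 5 and 6 stood above every knockout and wild type 4 did not (difference -0.96, SE 0.40, 95% interval -1.90 to -0.02, limma adjusted p = 0.953). Oas1a was steady in the knockouts at 11.91, 11.95 and 11.97, with wild type at 11.96, 12.36 and 12.33. Here too wild type 4 fell among the knockouts (difference -0.28, SE 0.14, limma adjusted p = 0.953). Oas1a is one of a cluster of close copies whose transcripts may bind the same probe set, so its value may not be of Oas1a alone. Oas2 and Oas3 differed by -0.82 each (SE 0.47 and 0.51). Oas2 came to -0.29 without wild type 6, in which it read 8.48 against 6.26 to 7.23 elsewhere, and Oas3 to -0.30 without knockout 1.

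IFIT proteins bind viral RNA and block its translation. The 3 members differed by -0.99 for Ifit1, -0.63 for Ifit2 and -0.93 for Ifit3. Ifit1 read 9.57, 10.11 and 9.67 in the knockouts and 9.85, 11.45 and 11.03 in wild type. Wild type 5 and 6 stood apart, and wild type 4 lay between knockout 2 and 3 (difference -0.99, SE 0.40, 95% interval -1.93 to -0.05, limma adjusted p = 0.953). It was -0.65 without wild type 5 and -1.45 without wild type 4. Relative to wild type 4, the family's median was higher by 1.45 in wild type 5 and by 1.74 in wild type 6, the widest such contrasts among the 8 roles.

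ISG15 is a ubiquitin-like protein; Herc6 attaches it in mouse cells, Usp18 removes it and also damps the type I receptor, and Trim25 is a ligase that activates RIG-I. Usp18 differed by -1.08 (SE 0.46) and Herc6, by its brightest probe set, by -0.60 (SE 0.31), with groups that overlapped in both. Usp18 spanned 6.24 to 7.22 in knockout arrays and 6.99 to 8.62 in wild-type arrays. The other Herc6 probe sets differed by -1.05, -0.91 and -0.91. In the one at -1.05 the groups did not overlap, with 5.38, 6.48 and 6.10 in the knockouts and 6.65, 7.24 and 7.23 in wild type. Trim25 read 12.02, 12.40 and 12.48 in the knockouts and 12.46, 12.47 and 12.71 in wild type. Apart from the low knockout 1 and the high wild type 6, its values lay between 12.40 and 12.48 (difference -0.24, SE 0.16, limma adjusted p = 0.953). The other Trim25 probe sets, less bright, differed by -0.11 (SE 0.20) and -0.09 (SE 0.20).

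The antiviral effectors were led by Ifi27l2a, a small hydrophobic protein whose transcript responds strongly to interferon. It read 7.99, 8.68 and 9.13 in the knockouts and 9.96, 11.18 and 10.96 in wild type. The groups did not overlap, the level was 4.28-fold lower in the knockouts (-2.10, SE 0.39, 95% interval -3.03 to -1.16), and this was the smallest unadjusted p among the members (0.00114, limma adjusted p = 0.953). The difference ran from -2.47 to -1.79 with wild type 4, 5, 6 or knockout 1 left out. It has a single probe set. Xaf1, which binds an inhibitor of cell death proteases, read 8.01, 8.96 and 8.84 in the knockouts and 8.96, 9.80 and 9.88 in wild type. Knockout 2 and wild type 4 were level at 8.96, so the groups overlapped (difference -0.94, SE 0.34, 95% interval -1.74 to -0.15, limma adjusted p = 0.953). A second Xaf1 probe set differed by -2.53 with an SE of 1.39, because it read 3.12 in knockout 3 against 7.08 to 10.05 in the other arrays.

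The other effectors all read lower on average in the knockouts with overlapping groups. They differed by -0.84 for Rsad2 (SE 0.41), which encodes viperin, -0.44 for its neighbour Cmpk2 (SE 0.20), a nucleotide kinase, and -0.54 for Bst2 (SE 0.27), which encodes tetherin, a tether for budding virus. Rtp4 differed by -0.70 (SE 0.34), and its other probe set by -0.70 too. Mx1 differed by -0.89 (SE 0.41) and Mx2 by -0.29 (SE 0.29). These are dynamin-like GTPases of which many laboratory strains carry defective alleles. Mx2 read 3.21 to 4.48, below the array medians of 5.44 to 5.58, and no detection call was used, so it is not shown to be above background. Mx1, Mx2 and Rsad2 were the 3 members with their lowest value in knockout 3.

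**Figure D3:**
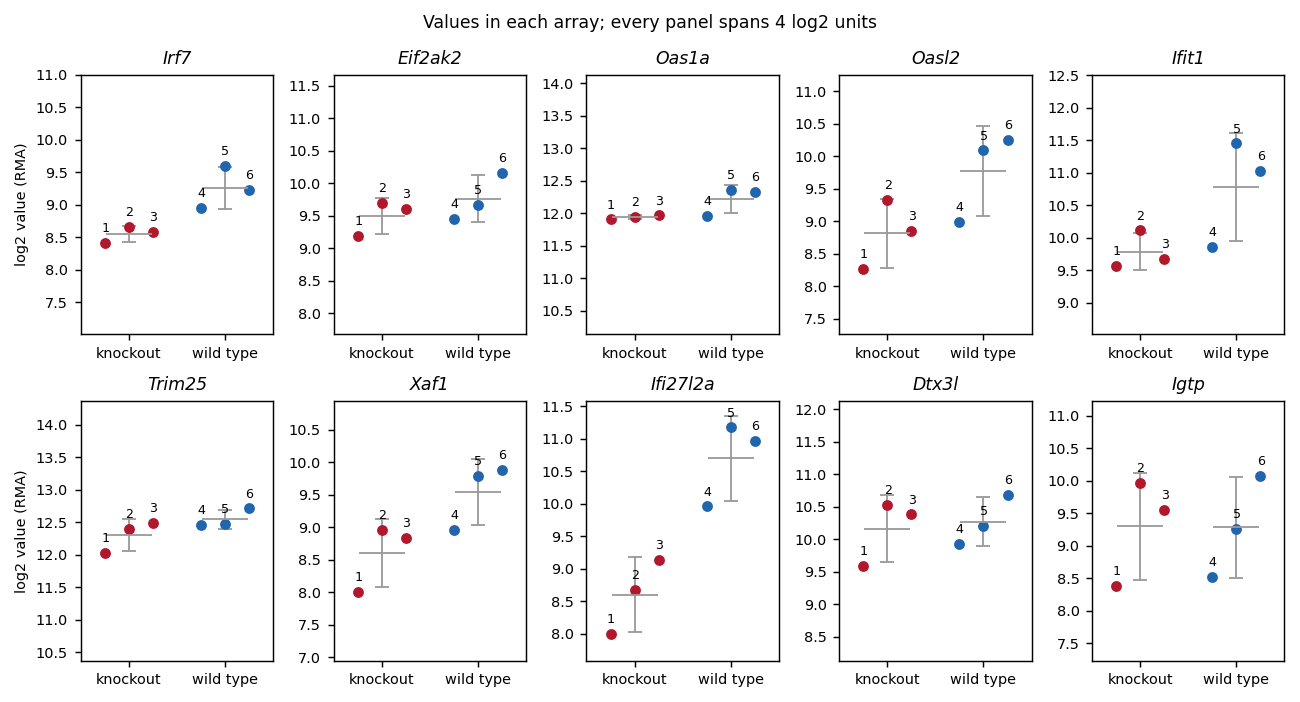
Points are the log2 values of 10 members in each array, numbered by array, with the mean and SD of each genotype as grey bars (n = 3 each), and every panel spans 4 log2 units. Only Irf7 and Ifi27l2a have knockout values all below wild type, and wild type 4 is the lowest wild-type array in every panel.

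PARP9 and its partner DTX3L, and the related PARP14, take part in ADP-ribosylation and ubiquitin signalling in this response. They differed little between genotypes: -0.07 for Parp9 (SE 0.15), -0.04 for Parp14 (SE 0.36) and -0.11 for Dtx3l (SE 0.29). Dtx3l read 9.58, 10.53 and 10.38 in the knockouts and 9.93, 10.21 and 10.68 in wild type, so knockout 2 and 3 were above wild type 4 and 5 (limma adjusted p = 0.987). The 95% interval of Dtx3l, -0.81 to 0.59, leaves room for a change of either sign. Its difference was 0.18 without knockout 1 and 0.096 without wild type 6.

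The GTPases best known as targets of interferon gamma, guanylate-binding proteins (Gbp2, Gbp3) and immunity-related GTPases (Igtp, Irgm1), attack the vacuoles of intracellular pathogens. They were the only role with members above 0: Gbp2 differed by 0.097 (SE 0.56), Igtp by 0.01 (SE 0.51) and Irgm1 by 0.14 (SE 0.36), while Gbp3 differed by -0.71 (SE 0.40). Igtp read 8.38, 9.96 and 9.54 in the knockouts and 8.51, 9.26 and 10.07 in wild type. Its groups overlapped fully, with knockout 1 and wild type 4 low and knockout 2 and wild type 6 high (limma adjusted p = 0.998), and its sign turned with cyclic loess normalization (-0.046). Gbp2 read 7.23 in knockout 1 and 7.69 in wild type 5 against 8.12 to 9.12 elsewhere, and its other probe set gave -0.14. The 30 members of the other 7 roles all differed below 0, with a median of -0.57. With array weights Stat2, Parp14 and Dtx3l lay above 0 too. Whether the GTPases differ from them was not tested. By array the GTPases' level was -1.01, 0.52 and 0.35 in the knockouts and -0.43, 0.02 and 0.64 in wild type. The IFIT family's was -0.87, -0.17 and -0.22 against -0.60, 0.85 and 1.06.

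**Figure D4:**
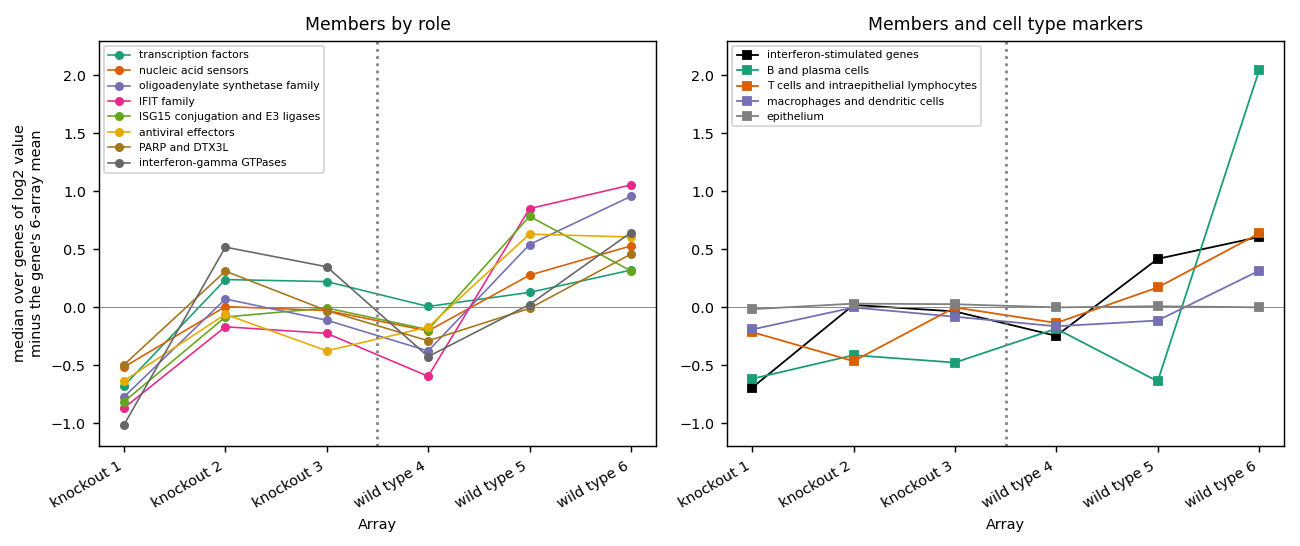
Each point is a list's level in an array (median over its genes of the log2 value minus the gene's 6-array mean), by role on the left and beside cell type markers on the right. Lines only join points of a list, since replicates have no order. Most roles are lowest in knockout 1 and high in wild type 5 and 6, B and plasma cell markers are high in wild type 6 alone (2.04), and epithelial markers stay between -0.02 and 0.03.

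Members with the ISRE core in a promoter window did not stand out in size of difference. The 14 measured members with it had a median difference of -0.29, the 10 with a window but no core -0.52, and the 10 without a window in the table -0.76. Both Ifit1 (-0.99, with the core) and Irf7 (-0.71, without it) were among the 5 lowest by unadjusted p, and Igtp, with the core, differed by 0.01. The median range over the 6 arrays was 1.53 with the core, 1.36 with a window but no core, and 1.92 without a window.

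Genes upstream of the members were read from the same arrays. In lists of ligands, receptors, kinases, other IRFs, inhibitors and interferon induction, 45 of 61 genes were measured, and their median difference was 0.011 with 21 below 0. Over all genes 47.8% were below 0. limma called 0 of the 45 after adjustment. At an unadjusted p under 0.05, 1 was higher (2.69% of all genes) and 0 were lower (2.02%). Taken as 1 list, their level stayed between -0.04 and 0.03 in all arrays, but single genes varied: Irf1, a transcription factor of the interferon gamma response, read 10.30, 11.27 and 10.98 in the knockouts and 10.49, 10.33 and 11.08 in wild type. The type I receptor genes Ifnar1 and Ifnar2 differed by 0.06 (SE 0.12) and -0.09 (SE 0.17), and the interferon gamma receptor genes Ifngr1 and Ifngr2 by 0.07 (SE 0.14) and 0.01 (SE 0.12). Ifnlr1, the specific chain of the type III receptor, read 6.63, 6.62 and 7.10 in the knockouts and 6.47, 6.37 and 6.56 in wild type. Its knockout values all lay above wild type, by 0.32 on average (SE 0.16, limma adjusted p = 0.953). This held for 1 of the 45 genes, where 5.5% of all genes did so. In 2 of the 45, Ifna2 and Irf2, all knockout values lay below wild type (4.83% of all genes). Ifna2 read only 2.11 to 2.56, below the array medians, so it is not shown to be above background. Il10rb, the chain that the type III receptor shares with other receptors, differed by -0.16 (SE 0.14). The kinases Jak1, Jak2 and Tyk2 differed by -0.08 (SE 0.16), 0.05 (SE 0.15) and 0.04 (SE 0.12). The 10 measured ligand genes differed by -0.25 to 0.11. Ifnb1 read 3.33 to 3.57 and Ifng 3.29 to 3.79, all below the array medians.

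The 1 upstream gene at an unadjusted p under 0.05 was Socs3, a feedback inhibitor of JAK signalling that STAT3 induces. It read 7.82, 8.72 and 7.54 in the knockouts and 6.65, 6.24 and 7.70 in wild type. Wild type 6 overlapped the knockouts, and the difference was 1.16 (SE 0.44, limma adjusted p = 0.953). Socs1, the inhibitor more closely tied to interferon gamma, differed by -0.23 (SE 0.18).

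A wider list of 84 other interferon-induced genes, of which 70 were measured, had a median difference of -0.15. Of the 70, 48 were below 0 (68.6%, against 47.8% of all genes), and limma called 0. All knockout values lay below wild type in 3 (4.83% of all genes) and above it in 1 (5.5%). At an unadjusted p under 0.05, 1 was lower (2.02% of all genes) and 1 higher (2.69%). Neither these counts nor those of values apart exceeded their share over all genes. The lower one was Ifi27l2b, from the same family as Ifi27l2a, at 11.44, 11.53 and 11.40 in the knockouts and 11.67, 11.96 and 11.71 in wild type (-0.32, SE 0.12, limma adjusted p = 0.953). Its groups did not overlap, but its one probe set is of a kind that may bind related transcripts. The higher one was Trim14, an adaptor of antiviral signalling, at 8.27 to 8.63 in the knockouts against 7.79 to 8.07 (0.45, SE 0.14, limma adjusted p = 0.953). By array this list ran -0.27, 0.01 and 0.06 in the knockouts and -0.21, 0.02 and 0.35 in wild type, with knockout 1 lowest and wild type 6 highest as for the members. A pair of genes of the list, chosen after their values were seen, moved widely between arrays. Iigp1, an immunity-related GTPase, read 4.99, 9.77 and 9.14 in the knockouts and 7.05, 7.31 and 9.44 in wild type. In antigen processing, Tap1 read 8.52, 9.89 and 9.93 against 8.91, 9.15 and 10.23, again low in knockout 1 and wild type 4.

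Markers of other cells moved with some of the arrays. In these bulk samples fewer cells of a type and less RNA per cell cannot be told apart. All 14 epithelial markers lay above the array median in every array, with Epcam at 13.50 to 13.72, so the label of epithelium was borne out. B and plasma cell markers were lower in the knockouts for 20 of 22, and their summed signal (log2 values turned to linear and added) ranged over 2056 to 2515 in knockout arrays and over 2187 to 7243 in wild-type arrays. Xbp1, also high in epithelium, made up 54.2% to 73.9% of this sum outside wild type 6 and 13.5% in it. Without Xbp1 the sum was 657.6 to 1038 in knockout arrays and 643.5 to 6264 in wild-type arrays. The top value was wild type 6, where Pou2af1 read 10.35 against 4.13 to 5.74 elsewhere. T cell and intraepithelial lymphocyte markers were lower for 21 of 22 (47.8% of all genes were), with sums of 1488 to 2219 and 1933 to 2871. Cd247, which differed by 0.23, made up 16% to 40.2% of these sums. Without Cd247 they were 890.4 to 1678 and 1491 to 2267. At an unadjusted limma p under 0.05, 4 of the 22 were lower (2.02% of all genes), Itgae, Il2rb, Nkg7 and Zap70. The same 4 had all knockout values below wild type (4.83% of all genes), and 0 passed after adjustment. Macrophage and dendritic cell markers were lower for 12 of 18, with sums of 1153 to 2168 and 836 to 3554. Single genes weighed on these sums: C1qb read 10.26 in knockout 1 against 5.89 to 7.75 in the other knockouts, and Lyz2 made up 46.5% of the sum in wild type 6. Markers of plasmacytoid dendritic cells, strong producers of type I interferon, were lower for 6 of 8, with sums of 6453 to 8684 and 8604 to 9484, but Klk1 alone made up 87.7% to 93.1% of them. Without Klk1 they were 682 to 807.6 and 621.2 to 1059. Siglech, their defining marker, read 5.51 to 5.88. Fibroblast markers were lower for 13 of 16, with sums of 943 to 1588 and 1339 to 3017, endothelial markers for 9 of 12 and neutrophil markers for 4 of 10. Markers with all knockout values below wild type were not particular to the T cell list. There were 4 of 22 for B and plasma cells, 4 of 16 for fibroblasts and 3 of 12 for endothelium. Plasmacytoid dendritic cells had 2 of 8, macrophages and dendritic cells 1 of 18, and neutrophils 1 of 10. In that order, 1, 2, 1, 0, 2 and 1 were lower at an unadjusted limma p under 0.05. All knockout values lay above wild type in 1 epithelial and 1 macrophage and dendritic cell marker. No value on this scale is 0.

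Without wild type 6 the members' median difference was -0.28, with 27 of 34 below 0 (55.1% of all genes were) and Ifi27l2a at -1.97. When the fit also held the level of B and plasma cell markers it was -0.27, with 28 of 34 below 0 (55.7% of all genes were). That marker level was -0.62, -0.41 and -0.48 in knockout 1, 2 and 3 and -0.19, -0.64 and 2.04 in wild type 4, 5 and 6. The T cell level was -0.21, -0.47 and -0.00 in the knockouts and -0.14, 0.17 and 0.64 in wild type, so wild type 6 and 5 were its highest arrays, as they were for the members. The part of these cells in the members' differences was not tested.

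The arrays as a whole were alike, with correlations of 0.975 to 0.990 over all probe sets. By their brightest probe sets the targeted genes differed by 0.11 for Bcl9 (SE 0.20) and 0.22 for Bcl9l (SE 0.15). The sources used here do not say whether their probes lie in the deleted parts, so these values do not check the labels.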

How the data were processed

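The authors' deposited values are log2 expression values made with RMA, per the submitters' processing notes (version not stated). That they are log2 was inferred from their range. Per the labels' protocols, colon epithelium was released in 3 mM EDTA and 0.05 mM DTT over 1.5 to 2 hours, RNA of 2 or 3 mice was pooled, and 30 ng was amplified. Such amplification and pooling can blur dim transcripts and hide single mice. Scan dates and detection calls were not used here, so array batches could not be checked. The number of arrays, 3 per group, limits the precision, and p-values measure the spread between pools.

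Of 45101 probe sets, 34958 had 1 gene symbol, 932 several and 9211 none. 34754 of the 34958 matched the RefSeq table of GRCm38.p6 by gene number. Each gene took its brightest probe set. Knockout and wild type were compared with limma 3.58.1 in R 4.3.3 (lmFit, eBayes, two-sided, Benjamini-Hochberg over all genes, threshold 0.05). The code was tested on simulated data whose noise was independent between genes, without the order of arrays that most members shared. No covariate was used. Every probe set was also fitted alone.

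The members and lists were chosen with earlier results of these data known, so no list was tested. An item withheld for evaluation is not reported here. Values in every array are given for members at an unadjusted p under 0.05 and the brightest of each role. The rule also took members whose probe sets differ in sign by more than 0.3, and none did. Receptors, kinases and upstream genes at that p have values too. Values in every array of Ifnlr1, Irf1, Iigp1, Tap1 and some partial values were added after seeing the data.

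Alternatives were leaving out each array, cyclic loess, weighting arrays, averaging all probe sets per gene, keeping genes above median brightness, dropping probe sets of the _x_at and _s_at kinds, robust estimation with a trend on intensity, and the level of B and plasma cell markers as a covariate.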

Additional observations from a re-analysis of the deposited data

How the results depend on the processing

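No paired analysis was possible because the groups share no replicate numbers. No member passed in limma under any of the 13 alternatives (adjusted p of the named members 0.515 to 0.9999). The median difference of the members stayed below 0, from -0.76 to -0.28 with 1 array left out and -0.56 to -0.27 under the other settings. The members at an unadjusted p under 0.05 numbered 9 when probe sets were averaged per gene (2.14% of all genes were lower), 2 with array weights (2.97%), 2 with the B and plasma cell covariate (4.14%), and 2 to 18 with 1 array left out (1.53% to 3.6%), 18 being without wild type 4. Members with values apart in either direction numbered 2 to 23 with 1 array left out, 23 again without wild type 4. In those settings 7.94% to 13.3% of all genes lay apart lower and a further 8.98% to 12.7% apart higher. Over all genes limma called 0, but 5 with the covariate (Lrg1, Pla2g2a, Vav3, Mfap3l and Plscr2), and 0 to 3 with 1 array left out, 3 being Lrg1, Pla2g2a and Vav3 without wild type 6. Over probe sets it called 5 with the covariate and 0 to 3 with 1 array left out. None of these is a member, and they are named after their values were seen. Of the members named with values in every array, signs turned for Dtx3l (0.071 with array weights, 0.12 with the covariate, 0.18 without knockout 1, 0.096 without wild type 6, and -0.29 to 0.18 over all arrays left out) and for Igtp (-0.046 with cyclic loess, -0.32, -0.11 and -0.37 without knockout 2, knockout 3 and wild type 4, and -0.37 to 0.47 over all arrays left out). Other signs turned too: Stat2 and Parp14 lay above 0 with array weights, with the covariate and without knockout 1 or wild type 6, Irf9 without knockout 1 and Parp9 without wild type 6, while Gbp2 lay below 0 without wild type 5 and when probe sets were averaged, and Irgm1 without wild type 4. No member lay above 0 without knockout 2 or 3. Leaving out an array shows only how far a value rests on that array, and the causes were not tested. Dim probe sets such as that of Mx2 are limited by signal near background.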
